A study of Drosophila melanogaster with 8 samples.

Results

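The genes for 3 insulin-like peptides (Ilp2, Ilp3 and Ilp5), a secreted insulin-binding protein (ImpL2), the insulin receptor (InR), its substrate chico, the transcription factor foxo and the insulin-regulated genes Thor and tobi were followed across all 4 groups of fly samples. The members were every probe set that the array annotation pairs with exactly 1 of these 9 gene symbols and with no other gene. This gave 7 probe sets of the 18769 tested, 1 each for Ilp2, Ilp5, ImpL2, InR, chico, foxo and tobi. Ilp3 and Thor were not analysed here.

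In adult flies, Ilp2, Ilp3 and Ilp5 are produced by insulin-producing cells, neurosecretory neurons of the pars intercerebralis in the dorsal brain, and are released into the circulation. They act through InR, which signals through chico, PI3 kinase and Akt, and Akt keeps foxo out of the nucleus. When insulin signaling is low, foxo enters the nucleus and activates genes such as InR itself and Thor, a repressor of translation. ImpL2 binds secreted peptides and restrains them. The alpha-glucosidase gene tobi, whose name stands for target of brain insulin, is known from fat body and gut, where it depends on the brain's insulin-like peptides and on adipokinetic hormone.

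RNA was measured on 8 Affymetrix expression arrays, 2 for each of 4 groups: dTip60E431Q flies under EE, dTip60E431Q flies under ISO, control flies under EE and control flies under ISO. All flies carried the GAL4 driver OK-107 and a UAS-mCD8-GFP reporter, and dTip60E431Q flies carried in addition a UAS transgene for a HAT-defective Tip60, expressed beside the endogenous gene in a w1118 background. EE was housing in a group of 30 flies with equal numbers of both sexes and ISO was housing alone, each for 5 days from eclosion, and the labelled age was 5 days for 7 arrays and 6 days for dTip60E431Q ISO replicate 2. GFP-positive cells were sorted by FACS from pooled brains of males and females. The labels call them Kenyon neurons, the intrinsic neurons of the mushroom body (MB), but the study's text also reports driver activity in optic lobes and suboesophageal ganglion and in the pars intercerebralis. No source states whether both arrays of a group had their own pool of flies, and p-values then cover only the spread from array to array, which may be technical. In sorted cells, fewer cells of a type and less RNA per cell cannot be told apart.

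The genotype labels were checked first with Tip60, which had a log2 signal of 9.64 to 10.14 on the 4 dTip60E431Q arrays and of 8.07 to 8.41 on the 4 control arrays. Of 12 listed markers of Kenyon neurons, 10 were measured, 9 or 10 of them above the array median on every array. Such counts were also high for 7 glia markers (7 on every array), 13 hemocyte markers (11 or 12) and 8 fat body markers (6 or 7). For 17 midgut enzymes they ran from 0 to 13. The count therefore does not tell Kenyon neurons from other cells. The 2 arrays of dTip60E431Q ISO resembled each other more than those of any other pair: the SD of their differences over all probe sets was 0.18, against 0.37 for dTip60E431Q EE, 0.36 for control EE and 0.48 for control ISO. Markers of other tissues differed between groups. The log2 of the summed signal of 8 measured fat body markers (of 12 listed) was 14.23 and 14.62 in dTip60E431Q EE, 15.35 and 15.35 in dTip60E431Q ISO, 15.4 and 15.29 in control EE and 14.3 and 14.42 in control ISO. That of 17 measured midgut enzymes (of 24 listed) was 13.67 and 13.62 in dTip60E431Q ISO and between 8.60 and 10.96 on the other 6 arrays. For 13 hemocyte markers it was 12.25 and 12.43 in dTip60E431Q EE, 12.72 and 12.73 in dTip60E431Q ISO, 12.65 and 12.38 in control EE and 12.16 and 12.29 in control ISO. For 7 glia markers it lay between 14.18 and 14.33 on all arrays.

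The members differed widely in how much they varied. All 7 lay above the array median on every array. Over the 8 arrays, tobi spanned 3.82 log2 units, Ilp5 2.53 and Ilp2 1.68, and these ranges were at the 99.4th, 98.5th and 96.4th percentile of all probe sets. The ranges of foxo (0.76), InR (0.71) and ImpL2 (0.47) were at the 79.2th, 76.3th and 48.9th percentile, and that of chico (0.18) was at the 2.85th. In tobi, Ilp5 and Ilp2, the dTip60E431Q EE and control ISO arrays were the lower ones and the dTip60E431Q ISO and control EE arrays the higher ones, with some overlap for Ilp2.

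**Figure D1:**
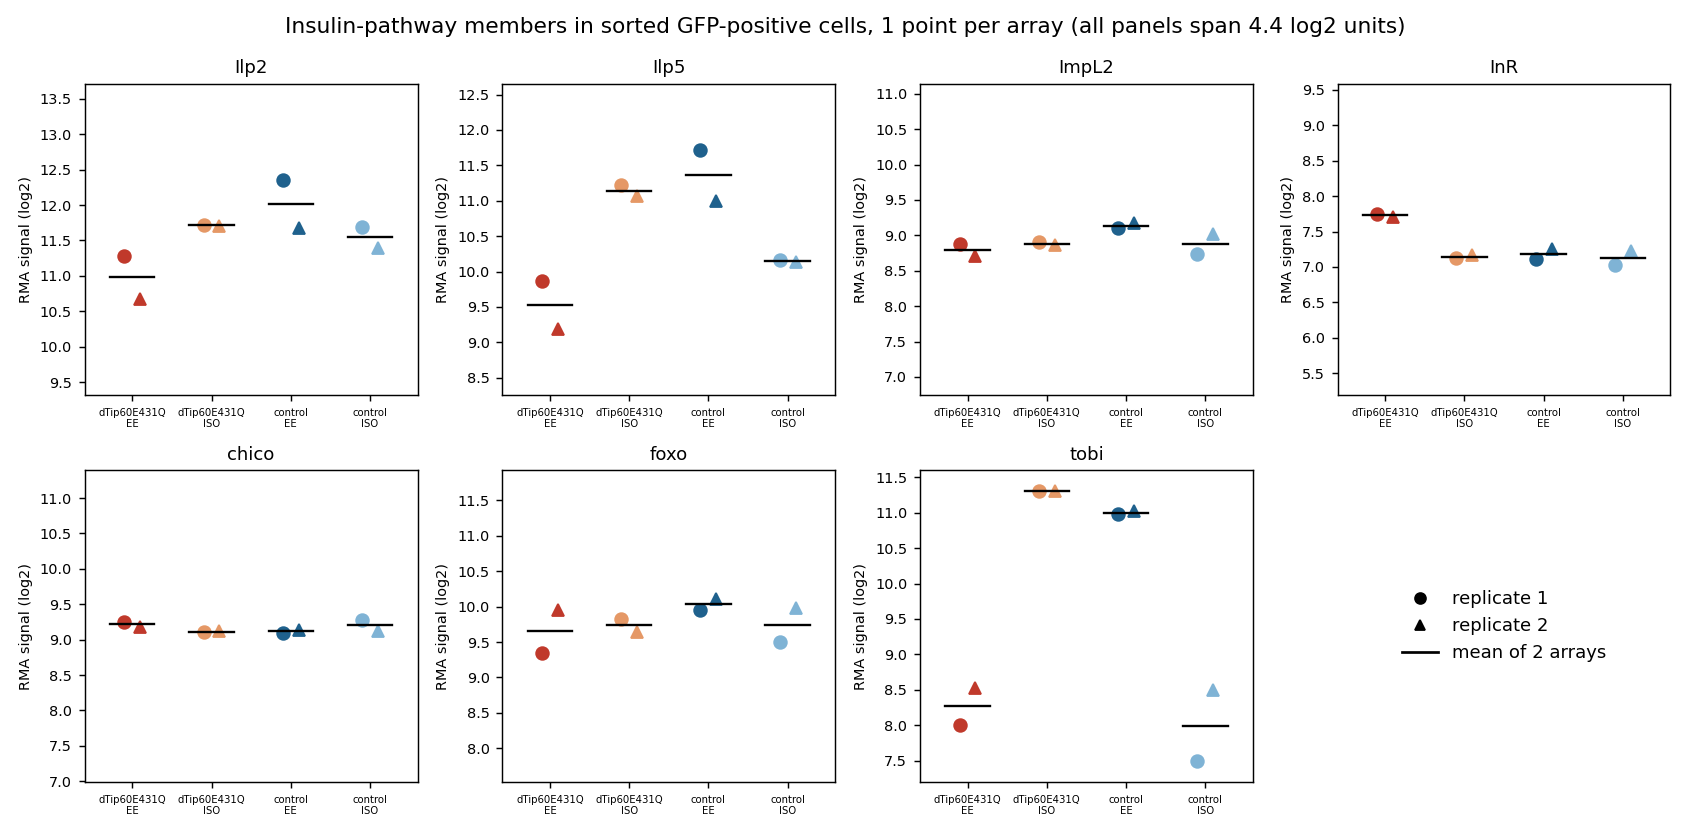
RMA log2 signal of the 7 measured members on each array, with dTip60E431Q left of control and EE left of ISO; circles are replicate 1, triangles replicate 2, bars the mean of 2 arrays, and all panels span the same log2 range. tobi lies between 10.98 and 11.31 in dTip60E431Q ISO and control EE and between 7.49 and 8.53 in the other groups, while chico stays between 9.10 and 9.28 on all arrays.

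Ilp2, a peptide of the insulin-producing cells, was among the brightest probe sets, at the 94.9th to 99.3rd percentile of every array. Its log2 signal was 11.28 and 10.68 in dTip60E431Q EE and 11.72 and 11.71 in dTip60E431Q ISO. In control flies it was 12.35 and 11.68 under EE and 11.70 and 11.40 under ISO. The 2 dTip60E431Q EE arrays were thus below the other 6, and the control arrays of both housings overlapped. By group mean the order was control EE (12.02 ± 0.48, SD, n = 2), dTip60E431Q ISO (11.72 ± 0.012), control ISO (11.55 ± 0.21) and dTip60E431Q EE (10.98 ± 0.43), and the first 2 of these overlapped.

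No comparison called Ilp2 after adjustment. In dTip60E431Q flies its difference of EE minus ISO was -0.74 (SE 0.27, adjusted p = 0.55 from limma), and in control flies it was 0.47 (SE 0.27, 95% confidence interval -0.17 to 1.12, adjusted p = 0.878). Under EE the difference of dTip60E431Q minus control was -1.04 (SE 0.27, adjusted p = 0.398), and under ISO it was 0.17 (adjusted p = 0.845). The interaction, that is the EE response of dTip60E431Q minus that of control, was -1.21 (SE 0.39, adjusted p = 0.327).

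Ilp5, which the same insulin-producing cells express and which is known to respond to nutrition, varied more. Its log2 signal was 9.87 and 9.19 in dTip60E431Q EE and 11.23 and 11.06 in dTip60E431Q ISO. Control flies had 11.72 and 11.00 under EE and 10.16 and 10.14 under ISO. EE and ISO arrays did not overlap in either genotype, and they were ordered oppositely: EE was below ISO in dTip60E431Q and above it in control. The means ran from control EE (11.36 ± 0.51, SD, n = 2) over dTip60E431Q ISO (11.14 ± 0.12) and control ISO (10.15 ± 0.016) to dTip60E431Q EE (9.53 ± 0.48), and only control EE and dTip60E431Q ISO overlapped as neighbours.

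The EE response of Ilp5 differed between the genotypes, with a log2 interaction of -2.83 (limma, SE 0.41, adjusted p = 0.0393). Among single comparisons, the EE minus ISO difference was -1.61 in dTip60E431Q (3.06-fold lower, SE 0.29, adjusted p = 0.123) and 1.21 in control (2.32-fold higher, SE 0.29, adjusted p = 0.539). The dTip60E431Q minus control difference was -1.83 under EE (3.56-fold lower, adjusted p = 0.103) and 1.00 under ISO (2-fold higher, adjusted p = 0.213). None of these 4 was called. The interaction call was lost when any of 5 arrays was left out, with adjusted p = 0.243 and 0.222 without dTip60E431Q ISO replicate 1 and 2, 0.0795 without dTip60E431Q EE replicate 2, 0.0748 without control ISO replicate 1 and 0.0997 without control EE replicate 1, while the difference stayed between -3.19 and -2.47. Summed fat body signal was likewise lower in dTip60E431Q EE and control ISO than in dTip60E431Q ISO and control EE, and its part in the Ilp5 result was not tested.

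In each of the 4 groups, the array with the higher Ilp2 signal also had the higher Ilp5 signal, and this was replicate 1 each time. The same held for Dh44, which encodes a diuretic hormone of other pars intercerebralis neurons, with 10.45 and 9.84 in dTip60E431Q EE, 10.34 and 10.26 in dTip60E431Q ISO, 10.66 and 10.35 in control EE and 10.39 and 9.94 in control ISO. The same also held for the Kenyon neuron markers toy, dac, Dop1R1, prt, trio and sNPF, but not for ey, rut, dnc and mub. It did not hold for SIFa, another peptide gene of pars intercerebralis neurons. The likeness was thus not particular to genes of the pars intercerebralis. It was noticed after the values were seen, and no test was made of it. Dh44 itself was not called in any comparison, and its interaction was -0.49 (SE 0.34, adjusted p = 0.682).

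To see whether Ilp5 and Ilp2 moved by equal amounts, their log2 difference was taken within each array, a measure chosen after the data were seen. Its absolute level means nothing, since 2 probe sets are not on one scale, and it can only be compared between groups. Ilp5 minus Ilp2 was -1.41 and -1.49 in dTip60E431Q EE and -0.50 and -0.64 in dTip60E431Q ISO, and it was -0.63 and -0.68 in control EE and -1.54 and -1.26 in control ISO. The arrays therefore formed 2 separate levels, with dTip60E431Q EE and control ISO at the lower one. The EE minus ISO difference of this measure was -0.88 in dTip60E431Q and 0.74 in control, and the dTip60E431Q minus control difference was -0.79 under EE and 0.83 under ISO. With 2 arrays against 2, the exact permutation test (two-sided) gave p = 0.333 for each of the 4, which is the smallest it can give. Its SD within groups was below that of either gene in both EE groups (0.056 in dTip60E431Q EE and 0.035 in control EE, against 0.48 and 0.51 for Ilp5), but not in the ISO groups. There it was 0.10 in dTip60E431Q ISO, against 0.012 for Ilp2, and 0.20 in control ISO, against 0.016 for Ilp5.

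**Figure D2:**
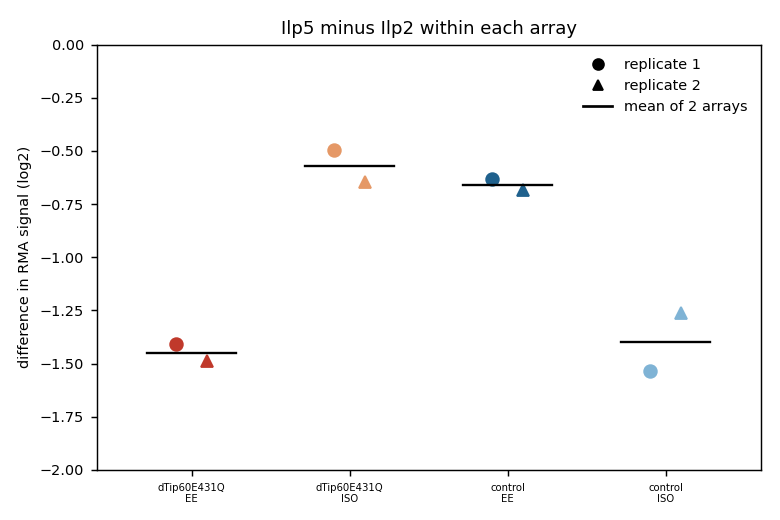
Log2 signal of Ilp5 minus that of Ilp2 within each array, by group; circles are replicate 1, triangles replicate 2 and bars the mean of 2 arrays. The groups dTip60E431Q EE (mean -1.45) and control ISO (mean -1.40) lie apart from dTip60E431Q ISO (mean -0.57) and control EE (mean -0.66), and only differences between groups can be read, not the level.

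ImpL2, the secreted insulin-binding protein, varied little. It had 8.88 and 8.71 in dTip60E431Q EE, 8.91 and 8.86 in dTip60E431Q ISO, 9.10 and 9.18 in control EE and 8.74 and 9.02 in control ISO. The control EE arrays were above the other 6, which overlapped. Its difference of dTip60E431Q minus control under EE was -0.34 (95% confidence interval -0.65 to -0.035, adjusted p = 0.628), its interaction was -0.35 (-0.79 to 0.083, adjusted p = 0.578), and none of the 6 comparisons called it.

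InR stood out in a single group. Its log2 signal was 7.75 and 7.71 in dTip60E431Q EE, against 7.12 and 7.16 in dTip60E431Q ISO, 7.11 and 7.26 in control EE and 7.03 and 7.22 in control ISO. The dTip60E431Q EE arrays were above all others, and the other 3 groups overlapped. In dTip60E431Q flies the difference of EE minus ISO was 0.58 (1.5-fold, SE 0.11, adjusted p = 0.169), and under EE the difference of dTip60E431Q minus control was 0.54 (1.46-fold, adjusted p = 0.257), neither of which passed after adjustment. The control difference of EE minus ISO was 0.06, with a 95% confidence interval from -0.21 to 0.33. The interaction was 0.53 (SE 0.16, adjusted p = 0.313). dTip60E431Q EE was thus the group with the highest InR and the lowest Ilp2 and Ilp5 means.

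For chico, which links InR to PI3 kinase, all 8 arrays lay between 9.10 and 9.28, and groups next to each other in order of means overlapped throughout. Within this narrow range, EE and ISO arrays did not overlap in dTip60E431Q, nor did dTip60E431Q and control arrays in either housing. The differences of EE minus ISO were 0.11 in dTip60E431Q (95% confidence interval -0.14 to 0.36) and -0.08 in control (-0.33 to 0.16), so that changes beyond these bounds are outside the intervals. The transcription factor foxo had 9.34 and 9.96 in dTip60E431Q EE, 9.83 and 9.64 in dTip60E431Q ISO, 9.96 and 10.10 in control EE and 9.50 and 9.98 in control ISO. Its arrays spread more within groups, with a pooled SD of 0.29 against 0.062 for chico. All its groups next to each other in order of means overlapped. Its largest difference, dTip60E431Q minus control under EE, was -0.38 (95% confidence interval -0.94 to 0.18, adjusted p = 0.811), and these 2 groups narrowly did not overlap. RNA levels do not show whether foxo protein was in the nucleus.

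tobi showed the largest differences of the members. In dTip60E431Q flies its log2 signal was 8.003 and 8.530 under EE and 11.302 and 11.307 under ISO. Control flies had 10.982 and 11.025 under EE and 7.490 and 8.492 under ISO. High and low arrays were separated by over 2 log2 units, and the housing that went with the high level was ISO in dTip60E431Q and EE in control. The order of means was dTip60E431Q ISO (11.30 ± 0.0036, SD, n = 2), control EE (11.00 ± 0.030), dTip60E431Q EE (8.27 ± 0.37) and control ISO (7.99 ± 0.71), of which the last 2 overlapped.

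Under EE, tobi fell 8.21-fold in dTip60E431Q flies relative to ISO (log2 difference -3.04, SE 0.32, adjusted p = 0.00958 from limma) and rose 8.07-fold in control flies (3.01, SE 0.32, adjusted p = 0.0418). In dTip60E431Q relative to control it fell 6.67-fold under EE (-2.74, SE 0.32, adjusted p = 0.0431) and rose 9.94-fold under ISO (3.31, SE 0.32, adjusted p = 0.00544). The interaction was -6.05 (SE 0.45, adjusted p = 0.00188), while the genotypes averaged over both housings differed by 0.29 (95% confidence interval -0.25 to 0.82, adjusted p = 0.769). These comparisons share arrays and are not independent of each other. Leaving out 1 array kept the interaction call in all 8 cases (adjusted p between 0.000427 and 0.0249). It ended the EE call in control in 6 of the 8, namely without either dTip60E431Q ISO array (adjusted p = 0.198 each), either dTip60E431Q EE array (0.0606 each) or control EE replicate 1 or 2 (0.323 and 0.247). The call of dTip60E431Q minus control under EE was lost without the same 6 arrays, with adjusted p = 0.172 without either dTip60E431Q ISO array, 0.221 and 0.111 without dTip60E431Q EE replicate 1 and 2, and 0.278 and 0.225 without control EE replicate 1 and 2. The EE call in dTip60E431Q was lost without dTip60E431Q ISO replicate 1 or 2 (0.134 and 0.141) or dTip60E431Q EE replicate 1 (0.0779), and the call of dTip60E431Q minus control under ISO without dTip60E431Q ISO replicate 1 or 2 (0.0791 and 0.0848).

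Fat body markers moved in the same directions as tobi, but by unlike amounts. The summed hemocyte markers had the same order of group means as tobi, with overlap between control EE and dTip60E431Q EE. By limma, 0 of the 13 were called in any comparison (0.0906% to 0.799% of all probe sets). At an unadjusted p under 0.05 and 1.3-fold, 8 were higher under EE in control (4.41% of all probe sets passed in either direction). In dTip60E431Q 3 were lower under EE (6.15%). The EE minus ISO difference was above 0 for all 13 in control. In dTip60E431Q it was above 0 for 5 and below 0 for 8 (median -0.10), so single hemocyte markers did not all move as tobi did. Of the 8 fat body markers measured, Lsp2, a storage protein, and Gnmt, which methylates glycine, rose under EE in control (list median 1.39). Both fell under EE in dTip60E431Q (list median -1.42). All 8 differences were above 0 in control and below 0 in dTip60E431Q. They were 4.42 in control and -3.04 in dTip60E431Q for Lsp2, but 0.14 and -0.19 for the yolk protein gene Yp1. Yp1, Fbp1 and apolpp were called in no comparison. In dTip60E431Q relative to control, Gnmt fell under EE (list median -1.41), and Lsp2 and Gnmt rose under ISO (list median 1.39). The interaction called 5 of the 8 (0.671% of all probe sets were called), all below 0. These were Lsp2 (-7.45), Gnmt (-6.95), the female fat body gene fit (-5.32) and the yolk protein genes Yp3 (-3.20) and Yp2 (-2.40). Their adjusted p-values from limma ran from 0.000361 to 0.0289, and the list median was -2.80. The medians over all probe sets in these 5 comparisons lay between -0.020 and 0.031. In the groups with high tobi every marker was above the array median except Fbp1, a larval serum protein receptor, at 4.49 to 5.39 over all 8 arrays and below the median on each. Midgut enzymes had another pattern. Under EE, 8 of 17 were called lower in dTip60E431Q (0.448% of all probe sets were called) and 0 were called in control (0.0906%). At an unadjusted p under 0.05 with 1.3-fold, 0 passed in control as well (4.41%). Midgut enzymes were thus low in control EE, where tobi was high. For the 10 measured Kenyon neuron markers, all 10 differences of dTip60E431Q minus control under ISO were below 0. Their median was -0.16, against -0.0039 over all probe sets. Under EE 7 were below 0 and 3 above. In both comparisons 0 of the 10 were called. What part cells or RNA of other tissues had in the tobi signal was not tested.

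**Figure D3:**
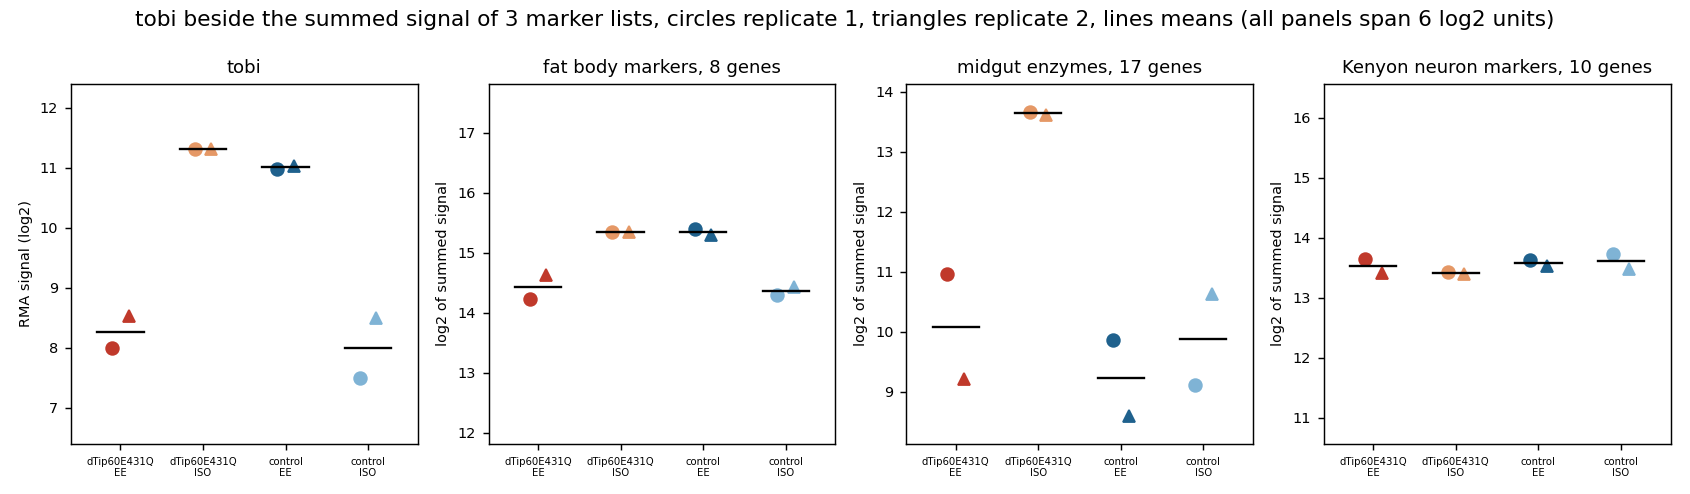
Log2 signal of tobi on each array beside the log2 of the summed signal of 8 fat body markers, 17 midgut enzymes and 10 Kenyon neuron markers, by group; circles are replicate 1, triangles replicate 2 and bars the mean of 2 arrays. Fat body markers are near 15.35 in dTip60E431Q ISO and control EE and between 14.23 and 14.62 in the other groups, the same order as tobi, midgut enzymes are high in dTip60E431Q ISO alone, and Kenyon neuron markers stay between 13.40 and 13.73.

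Counted over the 7 members, the comparison of EE with ISO called 1 member in dTip60E431Q (tobi, lower; 0.448% of all probe sets were called) and 1 in control (tobi, higher; 0.0906% of all probe sets). At an unadjusted p under 0.05 and 1.3-fold these were 4 in dTip60E431Q (InR higher, and Ilp2, Ilp5 and tobi lower; background 6.15%) and 2 in control (Ilp5 and tobi, both higher; background 4.41%). The comparison of dTip60E431Q with control called tobi under EE (lower; background 0.181%) and under ISO (higher; background 0.799%), and the interaction called Ilp5 and tobi (both below 0; background 0.671%). Without adjustment but with 1.3-fold, 4 passed under EE (InR higher, and Ilp2, Ilp5 and tobi lower; background 5.09%), 2 under ISO (Ilp5 and tobi, both higher; background 10.1%) and 4 in the interaction (InR above 0, and Ilp2, Ilp5 and tobi below 0; background 10.2%). Averaged over both housings, limma called 0 members (background 0.538%), with 0 at an unadjusted p under 0.05 and 1.3-fold (background 4.32%) and 0 by the methods' t-test. The arrays of the 2 groups did not overlap for 5 of the 7 members for EE against ISO in dTip60E431Q (41.8% of all probe sets) and for 3 in control (31.7%). For dTip60E431Q against control they did not overlap for all 7 under EE (37.5%), where foxo was 9.958 and 9.959 on the nearest arrays, for 4 under ISO (44.3%), and for 0 over both housings (5.31%). The median difference of the members was -0.09 for EE minus ISO in dTip60E431Q and 0.29 in control, -0.38 for dTip60E431Q minus control under EE and 0.02 under ISO.

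**Figure D4:**
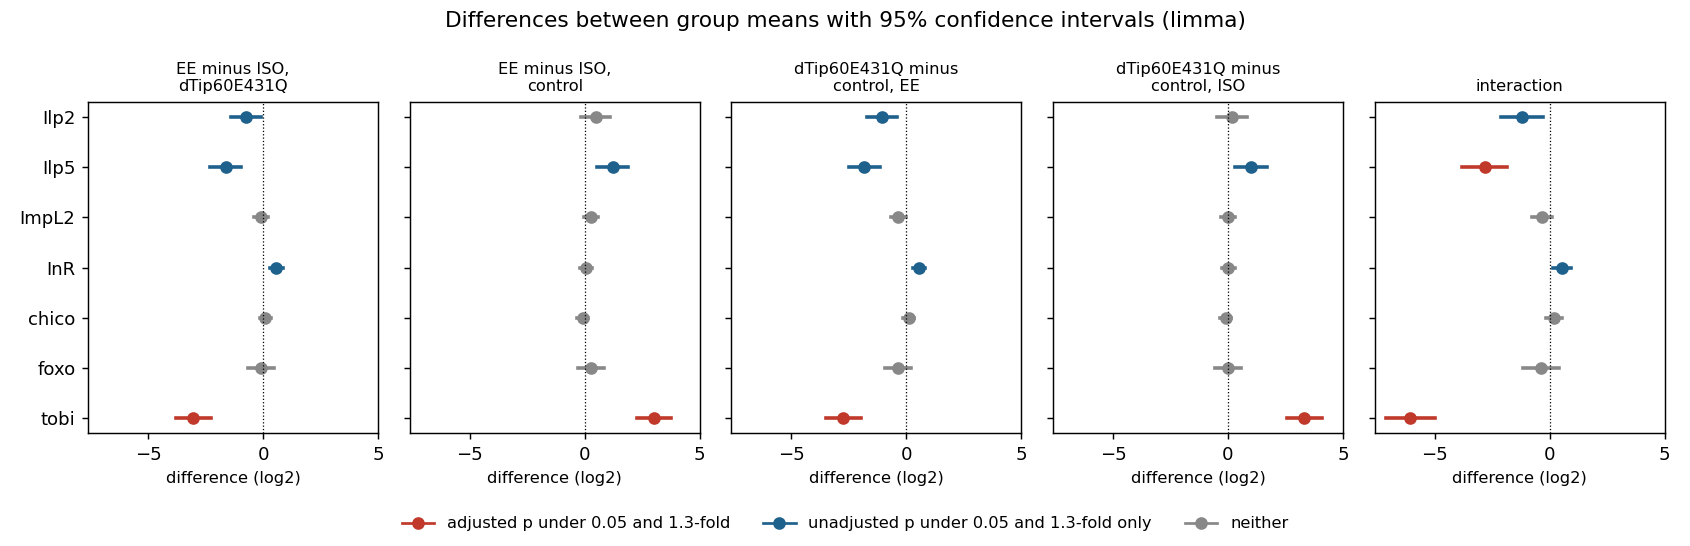
Differences between group means (points) with 95% confidence intervals (lines) from limma for the 7 members, on the log2 scale, for EE minus ISO in each genotype, dTip60E431Q minus control in each housing, and the interaction. tobi differs by -3.04 and 3.01 in the 2 housing comparisons and Ilp5 by -1.61 and 1.21, whereas the intervals of chico and foxo include 0 in all panels.

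The rest of the pathway was read from 5 lists with 71 genes, of which 54 were measured. A single gene, the maltase gene Mal-A2, was called, lower under EE in dTip60E431Q and in the interaction and higher in dTip60E431Q under ISO and over both housings. With 1 of 54 called, the share was 1.85% in each of these 4 comparisons, against 0.448%, 0.671%, 0.799% and 0.538% of all probe sets, and it was 0 for EE against ISO in control and for the genotypes under EE. At an unadjusted p under 0.05 and 1.3-fold, 6 genes passed for EE against ISO in dTip60E431Q (11.1%, against 6.15% of all probe sets) and 3 in control (5.56%, against 4.41%). For dTip60E431Q against control, 1 passed under EE (1.85%, against 5.09%), 8 under ISO (14.8%, against 10.1%) and 2 over both housings (3.7%, against 4.32%), and the interaction had 9 (16.7%, against 10.2%).

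Among other ligands and secreted regulators, 4 of 7 were measured and none was called in any comparison (0.0906% to 0.799% of all probe sets). Ilp7, a peptide of other neurons, lay between 5.10 and 5.59, and Ilp8, known as a growth-coordinating peptide of larval tissues, between 4.29 and 4.61, both below the array median. Sdr, a secreted decoy of the insulin receptor, had 8.80 and 8.91 in dTip60E431Q ISO and 8.22 and 8.40 in control ISO (difference 0.54, SE 0.13, adjusted p = 0.144).

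In the signaling core, 14 of 25 genes were measured, among them Pdk1, Akt, gig, Tsc1, raptor, rictor and S6k. By limma 0 of the 14 were called in any comparison (0.0906% to 0.799% of all probe sets). At an unadjusted p under 0.05 with 1.3-fold, 1 of the 14 passed in dTip60E431Q for EE against ISO (6.15% of all probe sets passed). The same gene was the only 1 to pass in the interaction (10.2% of all probe sets). This was REPTOR, a transcription factor restrained by TOR complex 1. In dTip60E431Q it had 9.24 and 9.45 under EE and 8.88 and 8.83 under ISO (difference 0.49, SE 0.12, adjusted p = 0.319). Its interaction was 0.52 (SE 0.18, adjusted p = 0.365). For EE minus ISO in dTip60E431Q, 13 of the 14 differences were above 0, with a median of 0.12. In control 9 of 14 were, with a median of 0.024, so that most were far under 1.3-fold.

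The 7 other foxo and nutrient targets gave 0 calls by limma in any comparison (0.0906% to 0.799% of all probe sets were called). The heat shock protein gene l(2)efl, a foxo target, came closest, with 10.17 and 10.63 in dTip60E431Q EE, 9.28 and 9.22 in dTip60E431Q ISO, 10.36 and 10.40 in control EE and 10.22 and 10.52 in control ISO. Its dTip60E431Q ISO arrays were below the other 6, which overlapped. The difference of EE minus ISO in dTip60E431Q was 1.15 (SE 0.18, adjusted p = 0.0701), and that of dTip60E431Q minus control under ISO was -1.12 (SE 0.18, adjusted p = 0.0501). The activin-like ligand gene daw, another foxo target, had 8.29 and 8.72 in dTip60E431Q EE and 8.97 and 8.97 in dTip60E431Q ISO (difference -0.47, adjusted p = 0.717), and 9.54 and 8.96 in control EE and 8.30 and 8.82 in control ISO (difference 0.69, adjusted p = 0.78).

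Of 22 neuroendocrine partners, peptides and receptors that act on insulin-producing cells or beside them, 19 were measured. Of these, 0 were called in any comparison (0.0906% to 0.799% of all probe sets). SIFa, a peptide of pars intercerebralis neurons, had 8.80 and 8.14 in dTip60E431Q EE and 9.03 and 9.11 in dTip60E431Q ISO (difference -0.60, SE 0.25, adjusted p = 0.607). The control difference of SIFa was 0.30 (SE 0.25, adjusted p = 0.921) and its interaction was -0.90 (SE 0.36, adjusted p = 0.446). For Akh, the adipokinetic hormone, the difference of EE minus ISO in control was 1.92 (SE 0.71, adjusted p = 0.78), with 11.05 and 10.97 in control EE and 7.80 and 10.38 in control ISO, whose arrays stood far apart. At an unadjusted p under 0.05 and 1.3-fold, only Akh passed for EE against ISO in control (4.41% of all probe sets passed). Only SIFa passed in dTip60E431Q (6.15%) and in the interaction (10.2%), and 0 passed in the genotype comparisons.

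All 10 other alpha-glucosidases were measured. Mal-A2 had 3.02 and 3.02 in dTip60E431Q EE, 4.45 and 4.45 in dTip60E431Q ISO, 3.05 and 2.94 in control EE and 2.89 and 2.93 in control ISO, so it was higher in 1 group but below the array median on all arrays, and whether the signal of the other 3 groups was above background was not tested. On the log2 scale it fell under EE in dTip60E431Q (-1.43, SE 0.098, adjusted p = 0.00128) and under ISO it rose in dTip60E431Q relative to control (1.53, adjusted p = 0.000787). With dim probe sets left out it was not among those tested. Its interaction was -1.51 (adjusted p = 0.00557), and over both housings it averaged 0.78 higher in dTip60E431Q (adjusted p = 0.00496). In control, where tobi rose under EE, its difference of EE minus ISO was 0.08 (SE 0.098, adjusted p = 0.962). The summed midgut enzymes were high in the same group, and their part was not tested. List medians were -0.51 for EE minus ISO in dTip60E431Q and 0.16 in control, against 0.010 and -0.020 over all probe sets, and 0.65 for dTip60E431Q minus control under ISO, against -0.0039.

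**Figure D5:**
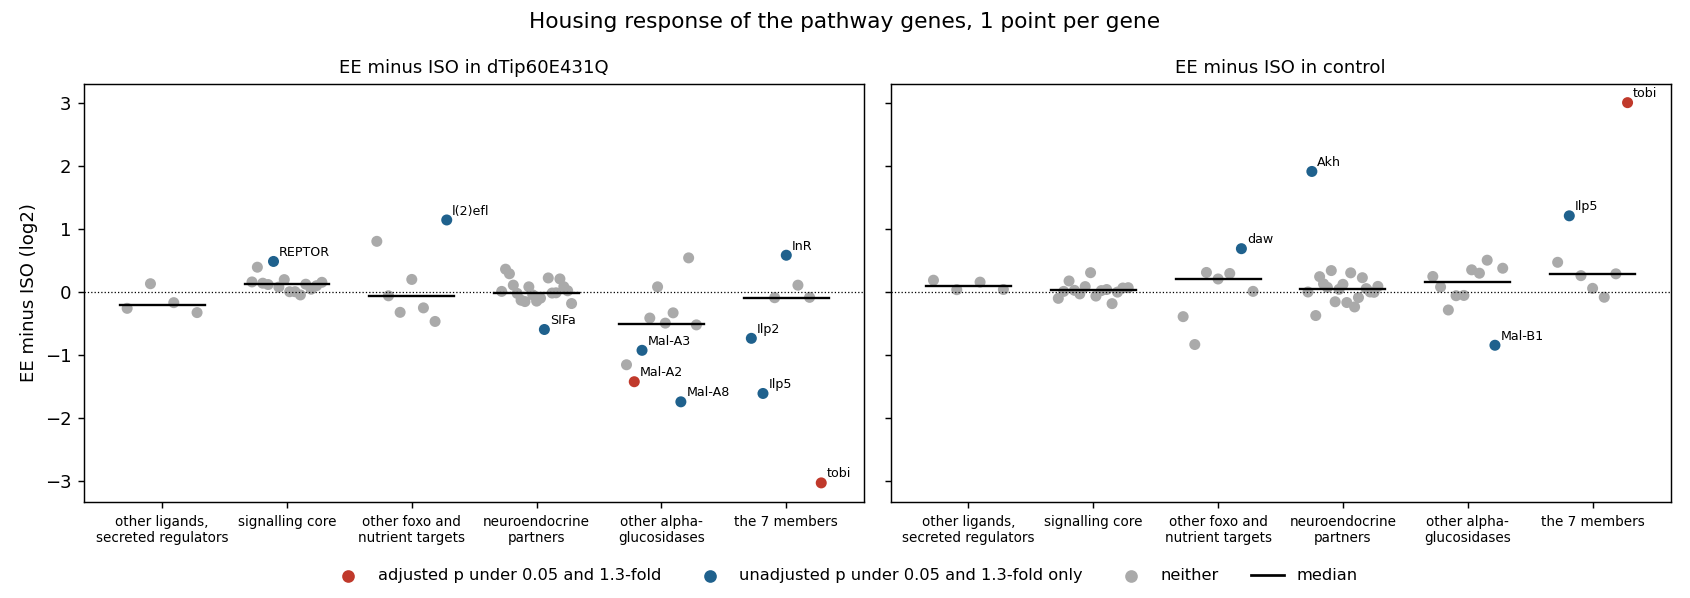
EE minus ISO difference on the log2 scale for each measured gene of 5 pathway lists and for the 7 members, in dTip60E431Q (left) and control (right); lines are list medians and colours give the test. tobi lies at -3.04 in dTip60E431Q and at 3.01 in control, Mal-A2 (-1.43) is the only called gene of the lists, and signaling core genes lie near 0 in both genotypes.

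The genes most like each member over the 8 arrays were taken among about 1580 genes with 1 symbol and a range of at least 1 log2 unit. These correlations are a description over 8 arrays that share groups and normalization, and no test was made. The pattern of tobi was closest to CG8249 (r = 0.988), CG14630 (0.987), CG4408 (0.987), Sardh (0.987), which breaks down sarcosine, and CG3513 (0.985). Sardh had 4.80 and 5.11 in dTip60E431Q EE, 7.45 and 7.38 in dTip60E431Q ISO, 7.40 and 6.81 in control EE and 4.12 and 4.66 in control ISO, which is the same separation into 2 high and 2 low groups.

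For the mean of Ilp2 and Ilp5 the closest genes were CG9837 (r = 0.929), CG11741 (0.904), CG16743 (0.894), Srg1 (0.884) and LKRSDH (0.876), an enzyme of lysine breakdown. These values were below those for tobi. CG11741 had 4.43 and 4.65 in dTip60E431Q EE, 7.75 and 7.80 in dTip60E431Q ISO, 9.02 and 8.54 in control EE and 5.42 and 6.26 in control ISO, and like the Ilp2 and Ilp5 means it was highest in control EE and lowest in dTip60E431Q EE. InR was most like sr (r = 0.931), a transcription factor gene of the Egr family, which had 9.61 and 9.37 in dTip60E431Q EE, 8.65 and 8.45 in dTip60E431Q ISO, 8.38 and 8.26 in control EE and 8.08 and 8.28 in control ISO. Next came Ir75a (0.900), CG15357 (0.833), CG13587 (0.832) and CG18131 (0.825). The closest genes were CG33468 (0.958) for ImpL2, CG31259 (0.950) for chico and CG11825 (0.982) for foxo. The highest r among so many genes was thus also large for members called in no comparison, which limits any ranking of members by it.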

How the data were processed

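The authors normalized the 8 arrays with RMA in R and deposited log2 signal per probe set, between 1.60 and 14.50 (array medians 6.41 to 6.50). The RMA version was not given in the sources used here. Of 18952 rows, 183 array controls were left out. The platform annotation gives 13647 probe sets 1 gene symbol, 402 several and 4720 none, and 0 symbols needed updating. R 4.3.3 and limma 3.58.1 fitted 1 mean per group over all 8 arrays (4 residual and 2.91 prior degrees of freedom). Probe sets were called at 1.3-fold or more with p under 0.05 after Benjamini-Hochberg adjustment over all 18769. The methods' Student test was an alternative. The steps were tested on simulated data. A listed gene was represented by its brightest probe set. Named were all measured members, called list genes, otherwise genes among the first 4 of a list by unadjusted p, and the 5 genes most like each member, of which some are left out. Dh44, CG11741 and sr were given in full, and single Kenyon neuron and fat body markers were named, after their values were seen. Members and lists were chosen with earlier results of these data known. The number of arrays limits the precision.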

Additional observations from a re-analysis of the deposited data

Results flagged for a closer look

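A pair of members had an EE response that differed between dTip60E431Q and control flies by a test of the difference itself. For tobi, the response in dTip60E431Q minus that in control was -6.051 on the log2 scale (limma, adjusted p = 0.00188), with dTip60E431Q lower and control higher under EE. For Ilp5 it was -2.827 (adjusted p = 0.0393), in the same directions.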

How the results depend on the processing

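The tobi interaction was called under every alternative that could be run for it. Its single comparisons kept their direction throughout, but not every call. Members called for EE against ISO in control numbered 1, and 0 with cyclic loess (tobi adjusted p = 0.0822), only the arrays compared (0.339), a mean-variance trend (0.054), the methods' t-test with adjustment (1) or the dTip60E431Q ISO pair averaged as 1 sample (0.198). In dTip60E431Q they numbered 1, and 2 with the replicate number as a block (Ilp5 adjusted p = 0.0412), 3 by the unadjusted t-test (tobi, Ilp5 and InR), 0 by the adjusted one and 0 with the pair averaged (tobi 0.141). For dTip60E431Q minus control, 1 was called under ISO, and 0 with only the arrays compared (0.0528), the adjusted t-test or the averaged pair (0.0818), and 2 by the unadjusted t-test (tobi and Ilp5). Under EE 1 was called, and 0 with cyclic loess (0.0853), the trend (0.0548), the adjusted t-test or the averaged pair (0.172), and 2 by the unadjusted t-test (tobi and InR). The interaction called 2, and 1 with dim probe sets left out (Ilp5 adjusted p = 0.0563) or the averaged pair (0.236). The causes were not tested, beyond the fewer samples of the averaged pair. The block changed no other member's call, and the deviations of same-numbered arrays correlated between -0.09 and 0.31, so the numbers were not taken to pair the arrays.

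With 1 array left out, members called ranged from 0 to 1 in each housing and each genotype comparison, from 1 to 2 for the interaction and stayed 0 for the average. Differences of opposite sign were seen then only for members near 0 that were not called: InR for EE minus ISO in control (-0.036 to 0.15), foxo for EE minus ISO in dTip60E431Q (-0.39 to 0.22), ImpL2 (-0.13 to 0.15), InR (-0.076 to 0.11) and foxo (-0.25 to 0.23) for dTip60E431Q minus control under ISO, and chico averaged over both housings (-0.037 to 0.040), which was also -0.0015 with cyclic loess. The count of all probe sets called, on which the background shares rest, moved further. With 1 array left out it was 37 to 159 for EE against ISO in dTip60E431Q (84 with all arrays) and 0 to 139 in control (17), 0 to 69 for dTip60E431Q against control under EE (34), 49 to 952 under ISO (150) and 43 to 310 over both housings (101), and 44 to 638 for the interaction (126). The highest counts came without control ISO replicate 2, equalled without control ISO replicate 1 for 159 and 69. Both counts of 0 came without control EE replicate 2. With dim probe sets left out, where 9385 were tested, the counts were 15, 18, 24, 57, 33 and 46 in the same order.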

Other observations

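Several pathway genes had arrays of the same group far apart, some of them in more than 1 group, which limits what their comparisons can show. The maltase gene Mal-A1 had 7.35 and 4.66 in dTip60E431Q EE and 4.51 and 7.05 in control ISO, and Mal-A6 had 6.60 and 4.52 in dTip60E431Q EE and 4.036 and 5.803 in control ISO. NLaz, a lipocalin, had 8.48 and 10.48 in dTip60E431Q EE. Pepck1, an enzyme of gluconeogenesis, had 10.29 and 11.55 there. None of these genes was called in any comparison.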
